A study of Mus musculus with 3 samples.

Results

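The follicular helper cytokines are 6 secreted-protein genes, Il21, Il4, Il10, Ifng, Il2 and Il13, taken by name as a fixed list from the 32285 genes of the count matrices. Their raw unique molecular identifiers (UMIs, each standing for 1 captured transcript) were summed over the cells that the deposited tables class as follicular helper T cells (Tfh) or follicular regulatory T cells (Tfr), by library and by the subcluster number of those tables. The cells were follicular T cells sorted from the spleens of mice immunized with ovalbumin-carrying liposomes (OVA-liposome) and taken 14 days later, and were profiled by 10x Chromium 3′ single-cell RNA-seq. The groups were wild type (WT, 2 deposited samples, of batch 1 and batch 2) and Siglec-G B-cell knockout (BKO, 1 sample, batch 1). In the knockout the gene for Siglec-G, an inhibitory lectin, is lost from B cells and not from the T cells that were sequenced. The labels name neither the Cre line nor the number of mice pooled, nor the antibodies of the sort, and their protocol text names spleens and lymph nodes where the tissue field names spleen. The comparison asked how the loss on B cells changes the transcripts for help in T cells.

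Tfh cells enter the B cell follicle and give germinal centre B cells the signals for selection. IL-21 and IL-4 are the main soluble ones: IL-21 drives B cell proliferation and plasma cell differentiation, and IL-4 supports B cell survival and class switching. IFN-γ directs switching towards other isotypes, IL-13 is made beside IL-4 by type 2 helper cells, IL-2 restrains the Tfh programme, and IL-10 acts on B cells and dampens other immune cells. Tfr cells carry Foxp3 and restrain the germinal centre response.

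Transcription of Il4, Il13 and Ifng is induced after antigen receptor signalling by NFAT, whose core element is GGAAA. The bases upstream of 4 of the genes are shown because most of the few cells that held Il13 also held Il4, and Il4 was found with Ifng less often, and Il21 with Ifng more often, than the product of their shares gives. RefSeq (GRCm38.p6) gave promoters for 5 of the 6 genes, Il10 being the exception, and 250 bases before each RefSeq start were searched on both strands. Capitals mark GGAAA or its reverse complement TTTCC in the gene's reading direction, 5′ to 3′. In the GENCODE models on GRCm38, Il21 lies at chr3:37222759-37232636 and Il2 at chr3:37120523-37125959, Il4 at chr11:53602982-53618669 and Il13 at chr11:53631324-53634702 (all minus strand), Ifng at chr10:118441046-118445892 and Il10 at chr1:131019845-131024974 (both plus strand). The last 4 bases before the RefSeq start of Il4 are left out because the GENCODE gene model places them inside the gene.
Il21, chr3:37232637-37232886, minus strand: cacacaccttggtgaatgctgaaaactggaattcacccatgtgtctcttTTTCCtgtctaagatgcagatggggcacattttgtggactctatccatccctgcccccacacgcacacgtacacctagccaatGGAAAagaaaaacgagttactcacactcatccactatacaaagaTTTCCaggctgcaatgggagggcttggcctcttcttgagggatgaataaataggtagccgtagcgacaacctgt
Il4, chr11:53618670-53618915, minus strand: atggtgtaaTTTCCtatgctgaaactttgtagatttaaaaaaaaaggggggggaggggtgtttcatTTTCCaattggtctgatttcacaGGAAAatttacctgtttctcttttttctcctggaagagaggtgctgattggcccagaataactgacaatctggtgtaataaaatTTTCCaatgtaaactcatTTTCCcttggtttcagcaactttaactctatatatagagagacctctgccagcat
Il13, chr11:53634703-53634952, minus strand: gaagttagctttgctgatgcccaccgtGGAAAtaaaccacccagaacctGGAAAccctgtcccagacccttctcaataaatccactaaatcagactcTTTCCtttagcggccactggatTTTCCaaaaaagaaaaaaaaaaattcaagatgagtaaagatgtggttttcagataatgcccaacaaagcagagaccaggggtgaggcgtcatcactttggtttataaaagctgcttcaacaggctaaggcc
Ifng, chr10:118440796-118441045, plus strand: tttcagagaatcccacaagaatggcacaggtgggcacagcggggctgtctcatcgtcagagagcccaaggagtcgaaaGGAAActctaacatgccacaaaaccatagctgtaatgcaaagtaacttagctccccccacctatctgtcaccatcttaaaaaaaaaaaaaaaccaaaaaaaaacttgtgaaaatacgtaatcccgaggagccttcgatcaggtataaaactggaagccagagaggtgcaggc
The Il4 window shown held 5 matches, a number that 0.390% of the 32851 promoter windows reached. The Il13 window held 4 (1.59% of windows had as many), the Il21 window 3 (6.39%), the Il2 window 2 (21.4%) and the Ifng window 1 (55.6%). The MAF motif TGCTGA was found 3 times in the Il4 window (0.146% of windows) and 1 time in each of the Il21, Il13 and Il2 windows (16.1%), with no match in the Ifng window. The STAT motif TTCNNNGAA was found 1 time, in the Ifng window (7.02% of windows), and the AP-1 motif TGANTCA (in 6.75% of windows) had no match in any of them. RefSeq gives Il4 a second start, 1331 bases inside the GENCODE gene model, and the 250 bases before it (chr11:53617339-53617588) held 0 matches to each of the 4 motifs. These are matches of letters, not binding sites.

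The tables held 3727 Tfh cells of WT run 1, 3668 of WT run 2 and 6389 of BKO, and 1416, 1449 and 2044 Tfr cells, with median depths from 4413 to 8407 UMIs per cell. The WT samples were not separate cells: each of the 5554 barcodes of WT run 1 was among the 5721 of WT run 2, so each genotype was 1 library and the runs show technical error only. Of 5068 cells annotated in both runs, 89.6% had the same class. BKO shared 11 barcodes with the WT run 1 tables and 13 with those of run 2. With 1 library per genotype there is no replicate error and no test. Values are UMIs of the gene scaled to a common total of the class (CPM), and brackets give exact 95% intervals for counting error only. Summed Tfh markers (Cxcr5, Pdcd1, Icos, Bcl6, Sh2d1a, Tox2, S1pr2 and Cd40lg, 8 of 8 found) ran from 1918 to 2156 CPM in Tfh. In Tfr they ran from 1600 to 1896 CPM, so that BKO Tfr came close to WT Tfh, and Icos was higher in Tfr in every library. Tfr markers (6 genes) summed to 1768 to 1954 CPM in Tfh, most of it Ikzf2, and to 4395 to 4664 CPM in Tfr. Among them Foxp3 ran from 331 to 356 CPM in Tfr. In Tfh, Foxp3 had 15 UMIs in WT run 1 (0.801 CPM), 495 in WT run 2 (16.5) and 58 in BKO (1.33), so the Tfh class of WT run 2 held Foxp3 transcripts that the other samples had less of. Without cells with a Foxp3 UMI, and with WT cells of 1 class in both runs, the Tfh log2 ratio of BKO to WT was 0.50 for Il21 and -0.33 for Il4. Basophil and mast cell markers, of cells that are other sources of Il4 and Il13, summed to at most 0.591 CPM, with Mcpt8, Fcer1a and Ms4a2 at 0 UMIs in every library. Natural killer and innate lymphoid markers (5 genes) summed to 93.2 to 189.5 CPM, of which Rora, also a T cell gene, gave most, and Ncr1 had 1 UMI in all. Some other marker sums were lower in BKO Tfh. γδ T cell markers (3 genes) stood at 8.65, 9.13 and 5.03 CPM and cycling markers (3 genes) at 192, 162 and 87.7 CPM. Natural killer T cell markers (3 genes) summed to 82.1, 81.5 and 63.0 CPM. Among them Zbtb16 stood at 3.63, 3.31 and 0.778 CPM, Slamf1 at 63.5, 64.3 and 47.7 and Klrb1c at 15.0, 13.9 and 14.6. Other sums were higher in BKO Tfh, among them plasma cell (7.90, 7.86 and 11.7 CPM) and erythroid markers (0.587, 0.568 and 2.24 CPM). Their part in the cytokine levels was not tested. B cell markers (5 genes) summed to 17.2 to 44.6 CPM. A sum over a class does not tell fewer producing cells from less RNA per cell, so shares of cells are given beside it.

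Free RNA was present in BKO, the library whose matrix holds empty barcodes. Its 907649 barcodes of 1 to 50 UMIs held 93 UMIs of Il21 (55.1 CPM), 78 of Il4 (46.2), 28 of Ifng (16.6), 15 of Il10 (8.89) and 8 of Il2 (4.74). Over all BKO cells of the tables the levels were of the same order, at 56.0 CPM for Il21, 64.1 for Il4, 19.1 for Ifng, 10.9 for Il10 and 4.02 for Il2. Tfr subcluster 4 of BKO (119 cells, median 6678 UMIs), the BKO Tfr subcluster of at least 100 cells with the lowest Il21 and Il4, held 1 UMI of Il21 (1.18 CPM), 3 of Il4 (3.55), 1 of Il10 (1.18), 4 of Ifng (4.73) and 3 of Il2 (3.55). For the first 4 of these its shares of cells with a UMI were 0.840%, 2.52%, 0.840% and 3.36%. The smaller subcluster 5 (32 BKO cells) had 1 UMI of Ifng and none of the other members. Ifng lay between 4.25 and 5.29 CPM in BKO Tfr subclusters 1 to 5, and Il2 in subcluster 4 was above its level in BKO Tfr subclusters 0, 2, 3 and 5, so subcluster 4 does not stand below the rest for these genes.

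A gene counted as higher or lower in BKO when the mean of its 3 values was 20 CPM or more and its BKO value differed from each WT run by a factor of 1.5 or more in that direction. In Tfh 3 members passed the 20 CPM minimum (Il21, Il4 and Ifng), and 0 were called, where 0.396% of 6559 genes were called higher and 2.45% lower (2.85% in all). In Tfr 1 member (Il4) passed and 0 were called, where 0.887% of 6539 genes were called higher and 2.4% lower (3.29% in all). Under trimmed mean scaling (TMM) 1.58% of genes in Tfr were called higher and 1.14% lower, and Il4 was not among them. The other members are described by their counts.

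**Figure D1:**
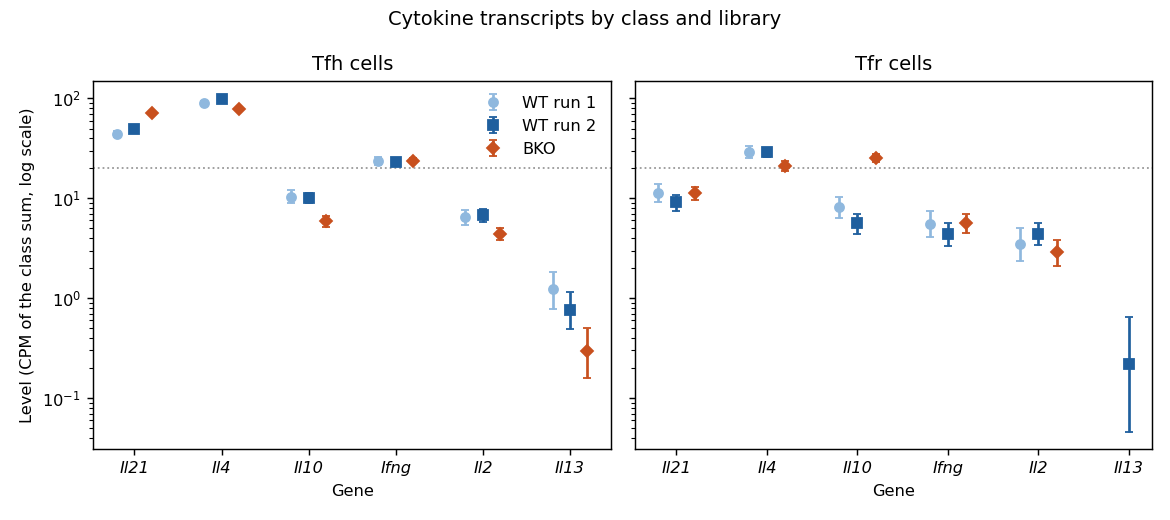
Level of each cytokine in Tfh (left) and Tfr (right) cells, in CPM of the class sum on a log axis, for WT run 1, WT run 2 and BKO. Bars are exact 95% Poisson intervals, the dotted line marks 20 CPM, and Il13 in Tfr of WT run 1 and BKO is not drawn because it had 0 UMIs. BKO lies above both WT runs for Il21 in Tfh (71.7 against 43.8 and 48.9) and for Il10 in Tfr (25.4 against 8.18 and 5.61).

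Il21, the cytokine of B cell proliferation and plasma cell output, was higher in BKO Tfh by less than the rule of size asks. The Tfh sums were 820 UMIs in WT run 1 (43.8 CPM, 40.8 to 46.9), 1463 in WT run 2 (48.9, 46.4 to 51.5) and 3132 in BKO (71.7, 69.2 to 74.2). The intervals did not overlap between BKO and either run. BKO was 1.64 times WT run 1 (1.52 to 1.77), the sample of the same batch, and 1.47 times WT run 2 (1.38 to 1.56), with a log2 ratio of 0.62 to the mean of the runs after 0.5 CPM was added. The second fold fell short of 1.5, and 99.6% of genes had a ratio at or below that of Il21. The median gene stood at -0.10. Under TMM, which moved ratios in Tfh by 0.16, Il21 was called higher (0.78), where 0.968% of genes in Tfh were called higher and 1.28% lower, as it was with DESeq2 size factors (0.76) or with WT run 1 alone (0.71). The Cell Ranger versions differed between genotypes, and genes with introns of 1 to 10 kb, as Il21 has, had a median of 0.12. With the trend over intron length taken off, Il21 stood at 0.49.

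More Tfh cells of BKO held an Il21 UMI. At an equal depth of 2500 UMIs per cell the shares were 7.28% in WT run 1 (6.44 to 8.18), 8.07% in WT run 2 (7.22 to 9.02) and 12.0% in BKO (11.2 to 12.8), which left out 194, 56 and 66 shallower cells. Without thinning they were 11.0%, 15.3% and 22.3%. The ratio of the BKO share to the mean of the runs was 1.57. UMIs per positive cell stood at 2.00, 2.60 and 2.20, following depth. Cells with 5 or more Il21 UMIs carried 25.9%, 42.8% and 30.04% of the transcripts, and the richest cell 1.34%, 1.30% and 0.639%, so no single cell set the level.

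By subcluster, Il21 was highest in Tfh subcluster 3 in every library, at 135, 152 and 150 CPM. BKO was 0.99 times WT run 2 there (0.90 to 1.08). Next came subcluster 2, at 62.9, 72.3 and 62.6 CPM (0.87 times, 0.72 to 1.05), and the intervals of subclusters 2 and 3 did not overlap in any library. In the subclusters with the most Il21 the genotypes differed by less than counting error. BKO was above WT in subclusters with less Il21. Subcluster 0 stood at 26.8, 30.7 and 49.7 CPM (1.62 times WT run 2, 1.38 to 1.90), subcluster 1 at 12.3, 12.2 and 28.4 CPM (2.32 times, 1.78 to 3.05) and the small subcluster 6 at 6.86, 11.0 and 33.2 CPM (3.03 times, 1.67 to 5.60). Subclusters 4 (46.8, 39.5 and 47.7 CPM), 7 (21.3, 37.5 and 58.6) and 8 (27.8, 28.0 and 25.5) had folds over WT run 2 whose intervals held 1. Counts in subcluster 7 were 6, 18 and 57 UMIs, and BKO lay further above WT run 1 than above WT run 2. Folds within a subcluster, with their intervals, were taken over WT run 2 only, the sample of batch 2. Subcluster 5, at 29.9 and 36.5 CPM in WT, had 11 BKO cells and no Il21 UMI in them.

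The makeup of Tfh moved with the genotype. Subcluster 2 held 6.90% and 7.33% of WT Tfh cells and 34.1% of BKO Tfh cells, and subcluster 3 held 16.5%, 16.6% and 20.5%. With the BKO levels weighted by the subcluster shares of UMIs in WT run 2, Il21 in BKO came to 55.5 CPM and the fold over WT run 2 from 1.47 to 1.13. Over the 5 subclusters of at least 100 cells the fold went from 1.36 to 1.20. With WT run 1 as the reference the fold went from 1.64 to 1.26. The subclusters were built by the authors from the expression of these same cells, so this split is a description.

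In Tfr, Il21 stood at 94 UMIs (11.3 CPM), 123 (9.08) and 172 (11.3), and the intervals of the 3 samples overlapped. Tfh held 3.87, 5.38 and 6.36 times the Tfr level in the 3 samples in turn. Within Tfr, subcluster 3 held 35.1, 34.3 and 16.7 CPM, so that BKO was lower (0.49 times WT run 2, 0.33 to 0.70). A single WT cell weighed on that value: it held 25 of the 75 UMIs of WT run 2, together with 28 UMIs of Il2, and without the richest cell of each library the level was 23.7, 22.9 and 13.1 CPM. In Tfr subclusters 0 (10.3, 5.26 and 17.7 CPM), 1 (0.737, 1.71 and 6.67) and 2 (4.06, 3.11 and 12.7) BKO was above both runs, on 1 to 42 UMIs each.

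**Figure D2:**
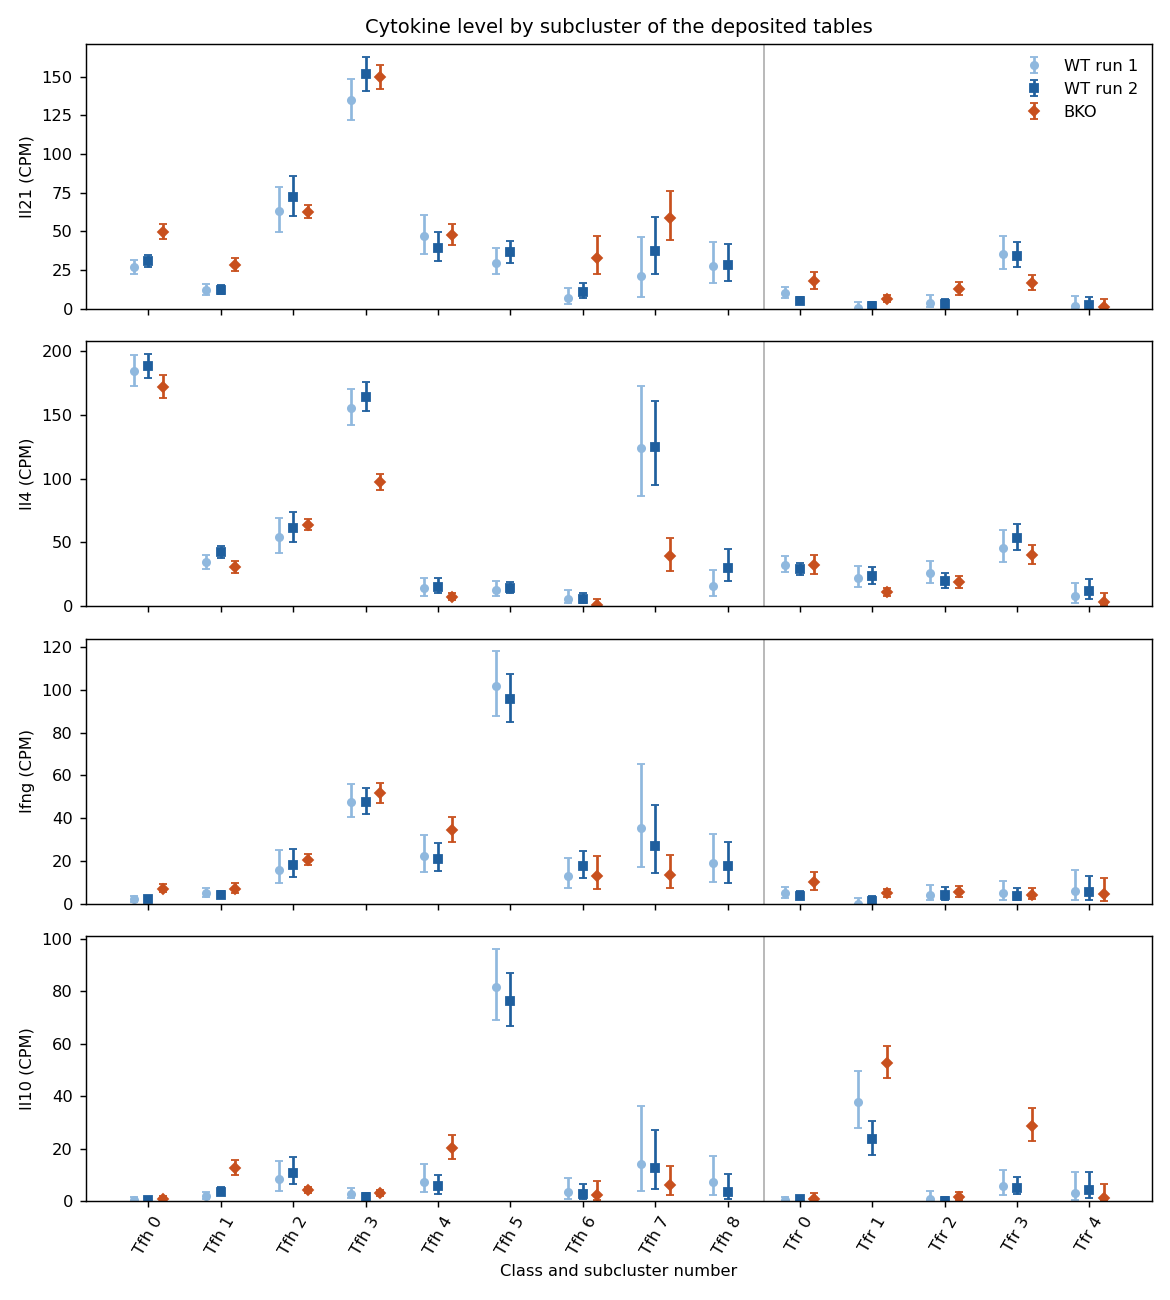
Level of Il21, Il4, Ifng and Il10 by class and subcluster number in CPM, with exact 95% Poisson intervals, for subclusters of at least 50 cells in that library. Il21 peaks in Tfh subcluster 3 at 135 to 152 CPM in all 3 samples, while Il10 and Ifng peak in Tfh subcluster 5 of WT, for which BKO has 11 cells and no point.

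Il4, the cytokine of B cell survival and class switching, was lower in BKO by a small margin that did not meet the rule. Tfh held 1698 UMIs in WT run 1 (90.6 CPM, 86.4 to 95.1), 2931 in WT run 2 (98.0, 94.5 to 102) and 3458 in BKO (79.1, 76.5 to 81.8). BKO lay under both runs, at 0.87 times WT run 1 (0.82 to 0.93) and 0.81 times WT run 2 (0.77 to 0.85). The log2 ratio was -0.25, a value at or above that of 27.1% of genes, and it was -0.09 under TMM and -0.11 with DESeq2 size factors. At equal depth, 16.01%, 16.7% and 13.7% of Tfh cells held an Il4 UMI, against 22.9%, 30.2% and 23.6% without thinning.

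The Il4 difference was uneven over subclusters. Subcluster 0, with the most Il4 in each library, stood at 184, 188 and 172 CPM (0.91 times WT run 2, 0.85 to 0.98) and held 53.5%, 53.1% and 40.8% of all Tfh Il4 UMIs. BKO lay nearer to WT run 1 there, over which no interval was taken. In subcluster 3, the subcluster of highest Il21, Il4 stood at 155, 164 and 97.2 CPM (0.59 times, 0.54 to 0.65) and in subcluster 7 at 124, 125 and 39.1 CPM (0.31 times, 0.20 to 0.48). The intervals of those 2 folds lay below that of the class, and in subcluster 2 the interval held 1 (54.5, 61.0 and 63.8 CPM, 1.05 times, 0.86 to 1.29). At equal depth the share of subcluster 3 cells with an Il4 UMI was 23.7%, 24.0% and 15.6%, while their Il21 share was 22.0%, 23.4% and 24.5%. At the WT run 2 makeup the Il4 fold of the class went from 0.81 to 0.78 over all 9 subclusters, of which subcluster 5 had 11 BKO cells and 0 BKO Il4 UMIs. Over the 5 subclusters of at least 100 cells it moved the other way, from 0.71 to 0.80.

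In Tfr, Il4 stood at 242 UMIs (29.1 CPM, 25.6 to 33.0), 392 (28.9, 26.2 to 32.0) and 324 (21.2, 19.0 to 23.7). BKO lay under both runs (0.73 times WT run 2, 0.63 to 0.85; log2 ratio -0.44). The equal-depth shares of 5.14%, 5.27% and 3.94% had overlapping intervals. Subcluster 1 carried the clearest drop, at 22.1, 23.5 and 11.0 CPM (0.47 times, 0.32 to 0.69). At the WT run 2 makeup of subclusters the Tfr fold of Il4 went from 0.73 to 0.87, over the 6 subclusters that both libraries held. At the WT run 1 makeup it went from 0.72 to 0.85.

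Il13, which lies 12654 bases from Il4 on chromosome 11 and shares its type 2 programme, was rare. Tfh held 23 UMIs in each WT run (1.23 and 0.769 CPM) and 13 in BKO (0.297 CPM), in 17, 15 and 12 cells. BKO was 0.39 times WT run 2 (0.18 to 0.80). At equal depth the shares were 0.208%, 0.150% and 0.0709%, with overlapping intervals. Of the Il13-positive Tfh cells without thinning, 12 of 17, 14 of 15 and 9 of 12 also held Il4, where 22.9%, 30.2% and 23.6% of all Tfh cells did. Of the Il13-positive cells, 10, 8 and 7 were in subcluster 0. At equal depth, 4.30, 3.74 and 2.73 cells held both, which was 3.66 (0.93 to 8.72), 4.13 (1.20 to 11.3) and 4.45 (1.01 to 14.3) times the product of the shares. Within subclusters the ratios were 2.12 (0.54 to 5.04), 2.87 (0.84 to 7.85) and 2.90 (0.66 to 9.32), with intervals that held 1. Tfr held 0, 3 and 0 UMIs, so no fold is given.

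Il2, the cytokine that restrains Tfh cells and that lies 96799 bases from Il21 on chromosome 3, was low in both classes. Tfh held 121 UMIs (6.46 CPM), 202 (6.75) and 193 (4.42). BKO was 0.65 times WT run 2 (0.53 to 0.80), but 1 WT cell held 41 of the 121 and 73 of the 202 UMIs. Without the richest cell of each library the levels were 4.27, 4.31 and 4.23 CPM and the log2 ratio moved from -0.53 to -0.02. The equal-depth shares were 0.984%, 0.909% and 0.917%. Subcluster 3 stood at 17.8, 20.2 and 4.32 CPM. The same WT cell held 41 of its 55 and 73 of its 100 WT UMIs, so no direction is read from it. The small subcluster 6 stood at 8.58, 7.67 and 22.5 CPM on 10, 14 and 21 UMIs (2.93 times WT run 2, 1.42 to 6.22). The equal-depth shares of subcluster 6, with 4.80% in BKO, had overlapping intervals. In Tfr, with 29, 60 and 44 UMIs, the ratio moved from -0.40 to 0.36 in the same way. Il2 was also the member whose detection repeated least between the WT runs: 46.4% of cells positive in run 1 were positive in the more deeply sequenced run 2, against 86.9% to 93.7% for the other members. Il2 overlaps Adad1 by 1408 bases, and Adad1 itself had 3, 4 and 7 UMIs over the Tfh and Tfr cells together.

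**Figure D3:**
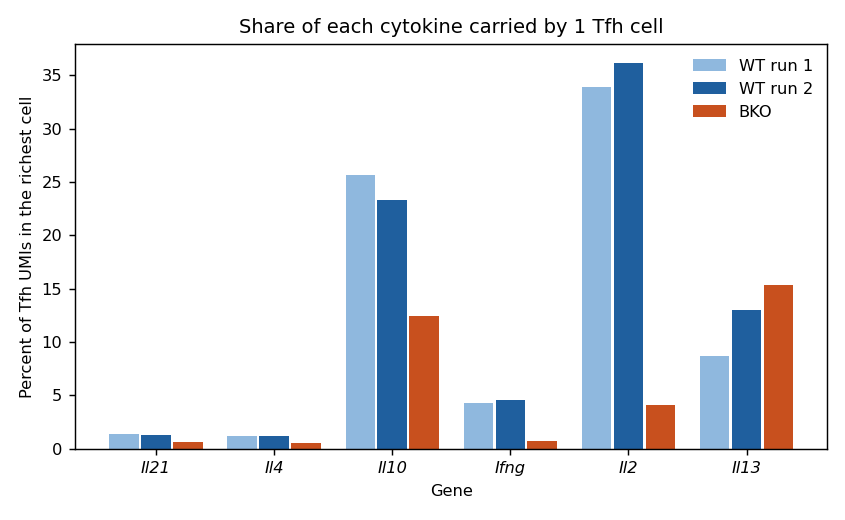
Percent of the Tfh UMIs of each cytokine that lay in the single cell with the most, by library. The richest WT cell carried 25.6% and 23.4% of Il10 and 33.9% and 36.1% of Il2, against 1.34% and 1.30% of Il21.

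Ifng, the cytokine of type 1 responses, differed between the genotypes in Tfh by less than counting error. The sums were 443 UMIs (23.6 CPM, 21.5 to 26.0), 697 (23.3, 21.6 to 25.1) and 1040 (23.8, 22.4 to 25.3), and BKO was 1.02 times WT run 2 (0.93 to 1.13). The log2 ratio was 0.02. Equal-depth shares of 4.15%, 4.22% and 4.57% overlapped. The class sums hid a difference in where the transcripts lay. Tfh subcluster 5 held 101.9 and 95.6 CPM in the WT runs and 40.9% and 40.6% of all WT Tfh Ifng UMIs, with 359 and 363 cells in WT and 11 in BKO. Without subcluster 5, Tfh held 15.4, 15.4 and 23.8 CPM, and the log2 ratio was 0.61. In the remaining subclusters BKO was above WT run 2 in subcluster 0 (2.03, 2.06 and 6.95 CPM; 3.38 times, 1.94 to 6.20), subcluster 1 (4.77, 4.08 and 6.98; 1.71 times, 1.04 to 2.87) and subcluster 4 (22.2, 21.1 and 34.2; 1.63 times, 1.14 to 2.37). The BKO values of subclusters 0 and 1 lay little above the 4.25 to 5.29 CPM of most BKO Tfr subclusters, and the part of free RNA in these folds was not tested. The equal-depth shares of subcluster 4 (5.17%, 5.47% and 7.29%) and subcluster 1 (1.07%, 0.901% and 1.39%) had overlapping intervals. In subcluster 3 the values of 47.7, 47.7 and 51.5 CPM differed by less than counting error (1.08 times, 0.92 to 1.27). Tfr held 46, 59 and 86 UMIs (5.54, 4.36 and 5.63 CPM), and the highest BKO level was in Tfr subcluster 0 (4.83, 3.81 and 10.1 CPM).

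Il10, which acts on B cells and dampens immune responses, differed between genotypes in opposite directions in Tfh and Tfr. In Tfh the sums were 195 UMIs (10.4 CPM, 8.999 to 12.0), 304 (10.2, 9.05 to 11.4) and 257 (5.88, 5.18 to 6.65), so that BKO was 0.58 times WT run 2 (0.49 to 0.69; log2 ratio -0.76). Equal-depth shares of 1.29%, 1.19% and 0.899% had overlapping intervals. Subcluster 5 set the WT level: it held 145 of the 195 and 226 of the 304 UMIs, at 81.7 and 76.3 CPM, and 1 of its cells held 50 and 71 of them. Without subcluster 5 the order turned: 2.95 CPM (2.19 to 3.89), 2.89 (2.29 to 3.61) and 5.89 (5.19 to 6.66), a log2 ratio of 0.90. In those remaining cells BKO was above WT run 2 in subcluster 1 (1.82, 3.50 and 12.5 CPM; 3.57 times, 2.23 to 5.91) and subcluster 4 (7.39, 5.65 and 20.04; 3.55 times, 1.88 to 7.40), and below it in subcluster 2 (8.39, 10.7 and 4.08; 0.38 times, 0.22 to 0.68). In subcluster 4, 1 BKO cell held 32 of 79 UMIs, and without the richest cells the levels were 4.93, 2.57 and 11.9 CPM.

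In Tfr, Il10 stood at 68 UMIs in WT run 1 (8.18 CPM, 6.35 to 10.4), 76 in WT run 2 (5.61, 4.42 to 7.02) and 388 in BKO (25.4, 22.9 to 28.1). BKO lay above both runs with no overlap, at 3.10 times WT run 1 (2.39 to 4.08) and 4.53 times WT run 2 (3.53 to 5.87), a log2 ratio of 1.81. The mean of 13.1 CPM was under the minimum, so the rule made no call. Without the richest cell of each library, which held 48 UMIs in BKO, the levels were 7.10, 4.80 and 22.3 CPM. At equal depth 1.34% (0.775 to 2.05), 1.03% (0.581 to 1.70) and 3.17% (2.43 to 3.998) of Tfr cells held an Il10 UMI, and without thinning 2.12%, 2.14% and 5.82%.

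Tfr subcluster 1 held 75.0%, 72.4% and 75.3% of the Tfr Il10 UMIs, and it held 16.2%, 17.1% and 36.3% of the Tfr cells. Its level was 37.6 CPM (28.0 to 49.4), 23.5 (17.7 to 30.6) and 52.6 (46.8 to 59.0), 2.24 times WT run 2 in BKO (1.68 to 3.05), and the intervals of BKO and WT run 1 overlapped. The equal-depth shares there, 5.84%, 4.23% and 7.51%, overlapped between BKO and each run. Without subcluster 1, Tfr held 2.45, 1.87 and 9.87 CPM. Part of that was subcluster 3, at 5.72, 5.03 and 28.8 CPM, where 1 BKO cell held 48 of 88 UMIs, and without the richest cells the values were 2.45, 3.20 and 13.1 CPM. At the WT run 2 makeup of subclusters the Tfr fold went from 4.51 to 2.60, over the 6 subclusters that both libraries held, and at the WT run 1 makeup from 3.31 to 1.81. In BKO, Tfr held 4.32 times the Tfh level of Il10 (3.68 to 5.08), whereas in the WT runs Tfh held 1.27 times (0.960 to 1.70) and 1.81 times (1.40 to 2.36) the Tfr level.

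Cells with UMIs of both Il21 and Il4 were counted at equal depth and set against the product of the shares, with values averaged over all random thinnings. In Tfh, 55.7 cells of WT run 1 were expected to hold both after thinning where the product gave 41.2 (ratio 1.35, 1.03 to 1.77), 60.1 against 48.7 in WT run 2 (1.23, 0.94 to 1.59) and 93.1 against 104 in BKO (0.90, 0.72 to 1.10). Within subclusters the ratios were 1.13, 1.05 and 0.85, and their intervals held 1 in each library. Over the class the interval of WT run 1 alone lay above 1, and the intervals of the genotypes overlapped. Pairs of single draws of the thinning gave 1.51 and 1.26 in WT run 1, 1.12 and 1.02 in WT run 2 and 0.823 and 0.890 in BKO. In subcluster 2 of BKO, 17.6 cells stood against 27.7 (0.64, 0.38 to 1.03). In subcluster 3, where both genes were high, the ratios were 1.02, 1.02 and 0.85.

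Ifng stood differently to the 2 helper cytokines. Il21 and Ifng were found together 2.01, 2.27 and 1.66 times as often as the product of their shares over the class, and 1.48, 1.68 and 1.26 times within subclusters. Over the class the intervals lay above 1 in all 3 samples, and within subclusters in WT run 2 (1.12 to 2.43) but not in WT run 1 (0.901 to 2.22) or BKO (0.959 to 1.63). Il4 and Ifng were found together 0.29, 0.32 and 0.39 times as often over the class (6.84, 8.11 and 15.3 cells against 23.4, 25.5 and 39.5) and 0.45, 0.50 and 0.41 times within subclusters. The intervals for Il4 with Ifng stayed under 1 in each library on either basis. In subcluster 3, which held all 3 genes, Il4 with Ifng stood at 0.28, 0.40 and 0.47. Il10 and Ifng were found together in WT subcluster 5, in 12.3 cells of WT run 1 against 5.05 by the product (2.43, 1.23 to 4.15). The richest Il10 cell there, with 71 Il10 UMIs in WT run 2, also held 17 of Il21 and 15 of Ifng and none of Il4. The richest Il10 cell of BKO Tfh, in subcluster 4, had 32 of Il10 with 12 of Il21, 3 of Ifng and none of Il4.

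**Figure D4:**
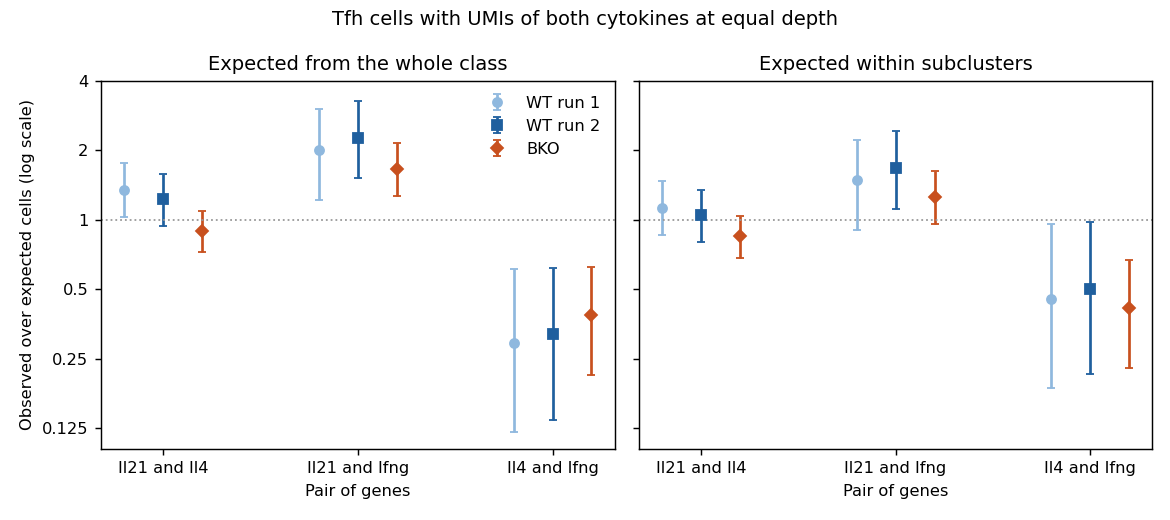
Observed over expected number of Tfh cells with UMIs of both genes of a pair, on a log axis, with expectation from the whole class (left) or summed within subclusters (right). Bars come from exact 95% Poisson intervals of the rounded number of cells. Il4 with Ifng lies under 1 in all 3 samples (0.29 to 0.50), and the points of Il21 with Ifng above it (1.26 to 2.27), with bars that reach 1 within subclusters in WT run 1 and BKO.

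Tfh cells were then divided, in 1 random thinning to equal depth, into those with Il21 and no Il4 (207, 249 and 634 cells) and those with Il4 and no Il21 (509, 523 and 761). The division uses the cytokines themselves, so the other genes are described without a test, ranked over 3360 genes by the smaller ratio of WT run 2 and BKO. Of the Il21-only cells 47.3%, 47.0% and 41.6% lay in subcluster 3, and of the Il4-only cells 57.8%, 56.6% and 38.5% in subcluster 0. Il21-only cells had more Cacna1d, a calcium channel subunit (log2 ratios 3.34, 3.63 and 3.14), Ralyl (2.03, 2.98 and 2.97) and the inhibitory receptor Lag3 (3.31, 2.69 and 2.49). The next were Nkg7 of cytotoxic granules (3.26, 2.42 and 2.59), Ahnak (2.51, 2.48 and 2.31), Klf2, the factor of lymphocyte recirculation (2.91, 2.07 and 2.21), Tshz2, the type 1 chemokine receptor Cxcr3 (2.66, 2.27 and 1.72), Hs6st3 and the interferon-induced GTPase Iigp1. A ratio to Il4-only cells does not set Il21-only cells above the rest. Nkg7 stood at 178, 162 and 15.1 CPM in Il21-only cells and at 314, 287 and 27.9 in cells with neither cytokine. Klf2 stood at 122, 104 and 67.5 CPM against 108, 96.8 and 101. Cacna1d (236, 280 and 208 against 65.5, 66.7 and 85.4) and Lag3 (176, 180 and 167 against 64.3, 60.1 and 94.9) were lower in cells with neither. Il4-only cells had more Smtn (-3.87, -2.96 and -3.58), the LIM protein Lmo4 (-2.48, -1.77 and -1.75), Rflnb (-2.72, -2.13 and -1.74) and the chemokine receptor Cxcr6 (-1.07, -1.65 and -3.12). Rgcc, Mirt1, the oxysterol receptor Gpr183 (-1.36, -1.61 and -1.36), Cd96, Cd226 and Asb2 followed.

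**Figure D5:**
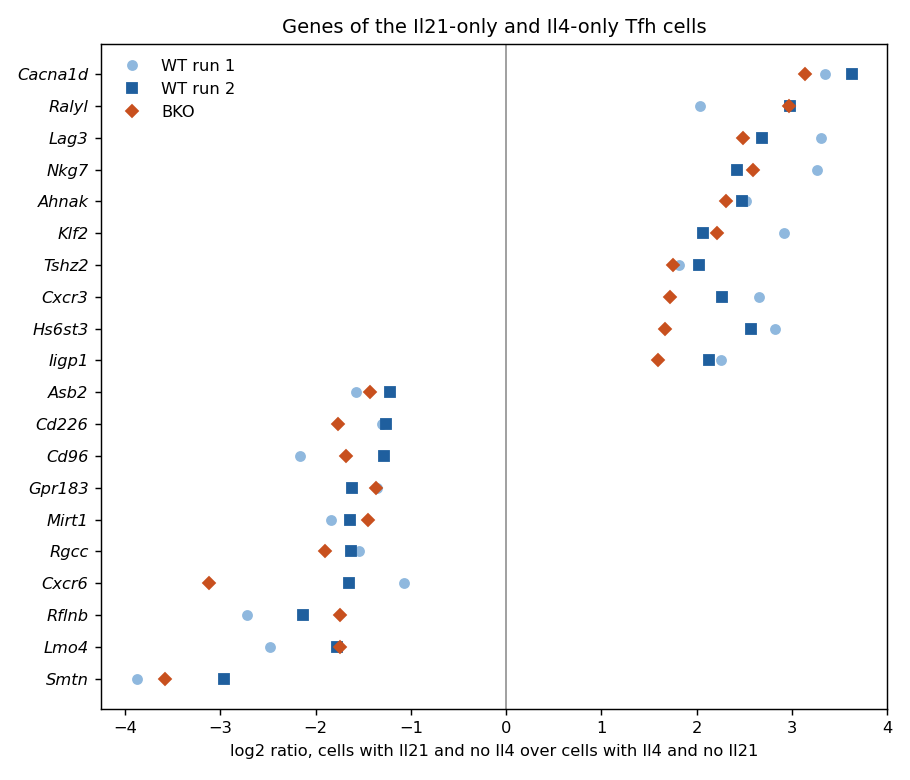
The 10 genes ranked first in each direction between Tfh cells with Il21 and no Il4 (positive log2 ratio) and those with Il4 and no Il21 (negative), at equal depth, with 1 point per library and no error bars. Cacna1d reaches 3.14 to 3.63 and Smtn -3.87 to -2.96, and the ranking itself set the shared sign of WT run 2 and BKO.

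Part of this held within 1 subcluster. Among subcluster 3 cells (98, 117 and 264 with Il21 only; 113, 105 and 154 with Il4 only), Cacna1d stood at 2.23, 2.88 and 1.98, Klf2 at 4.35, 3.35 and 3.31 and Lmo4 at -1.97, -1.74 and -1.53. No interval was taken for these ratios. Klf2 was low in Il4-only cells of all subclusters together (15.7, 24.5 and 14.2 CPM), so the size of its ratio in this smaller set is uncertain. The other genes described here were picked after their values were seen. Cxcr5, Pdcd1 and Bcl6, which define Tfh cells, differed by at most 0.37 on the log2 scale between the 2 kinds of cell. Cd40lg, also on the Tfh marker list, was lower in Il21-only cells (-0.67, -0.46 and -0.42). Maf, a factor that activates both cytokine genes, was higher in Il21-only cells (0.71, 0.76 and 0.61), and Gata3, of the type 2 programme, stood at -0.50, -0.19 and -0.87.

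Patterns were compared over the Tfh and Tfr subclusters of at least 100 cells (12 in WT run 2, 11 in BKO). The genes with the pattern most like Il21 were Ptpn11, a phosphatase (Pearson r of log2 levels 0.92 and 0.92), Dap (0.87 and 0.96), Sostdc1 (0.87 and 0.88), Nanos1 (0.88 and 0.87) and Trim8 (0.85 and 0.92). For Il4 they were Ica1l (0.92 and 0.91), the follicular retention receptor S1pr2 (0.90 and 0.91), Rbms2 (0.89 and 0.93), Mcur1 (0.88 and 0.94) and Lpp (0.87 and 0.90). For Ifng they were Gdi2 (0.84 and 0.83), the granzyme Gzmk (0.79 and 0.94), Cacna1d (0.77 and 0.93), Farp1 (0.80 and 0.74) and Cxcr3 (0.79 and 0.73). Subclusters of 1 library share their cells' preparation and depth, and r is a description. Each r includes subclusters of both classes. In WT run 2, Tfh held 5.38 (Il21), 3.39 (Il4) and 5.35 (Ifng) times the Tfr level. In BKO these were 6.36, 3.73 and 4.23 times. Whether a gene follows a cytokine among the Tfh subclusters only was not tested. Among the members themselves, Il4 stood closest to Il13 in WT run 2 (0.75, and 0.73 in BKO) and to Il21 in BKO (0.74, and 0.56 in WT run 2). Il13 had 15 UMIs in Tfh subcluster 0 of WT run 2 and 3 or fewer in each other subcluster used. In BKO these were 7 and 3 or fewer, so few UMIs set the r with Il13. Il21 stood closest to Il2 in WT run 2 (0.67, and 0.33 in BKO) and to Ifng in BKO (0.77, and 0.64 in WT run 2). In WT run 2, 1 cell held 73 of the 100 Il2 UMIs of Tfh subcluster 3. Another held 28 of the 33 of Tfr subcluster 3, so single cells set much of the Il2 level behind the 0.67.

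Of the receptors and signalling genes for these cytokines, 16 were measured in Tfh, of which 0 were called higher and 1 lower (median log2 ratio -0.17, all genes -0.10), where 0.396% of all genes in Tfh were called higher and 2.45% lower. In lists this small 1 call already exceeds those shares, so the counts here and below name the genes and are not read as a property of a list. That 1 was Il10ra, the ligand-binding chain for IL-10, at 42.6, 41.5 and 21.2 CPM (-0.97), also lower under TMM. Among the most abundant were Jak1 (510, 492 and 431 CPM) and Il6st (219, 215 and 259). In Tfr, where 0.887% of all genes were called higher and 2.4% lower, 1 of 18 was higher, Ifngr1 of the IFN-γ receptor (45.6, 48.4 and 80.1 CPM, 0.76), and 1 lower, Il6ra (140, 143 and 92.2, -0.62), whose call was lost under TMM. Of the negative feedback genes 0 of 4 in Tfh and 0 of 5 in Tfr were called, with Ptpn6 at 89.8, 90.3 and 109 CPM in Tfh.

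Of 26 transcription factors of these cytokine genes measured in Tfh, 1 was higher and 3 lower (median -0.02). Ascl2, which drives Tfh homing, was called at 17.6, 15.9 and 27.2 CPM (0.68), and passed the 20 CPM minimum only through its BKO value. Eomes (63.6, 64.8 and 10.5 CPM, -2.55) and Runx3 (52.4, 52.0 and 16.2, -1.66), factors of cytotoxic and type 1 cells, were lower and passed the minimum through their WT values, as was Ikzf1 (832, 834 and 553, -0.59), not called under TMM. Tox, Ets1 and Maf were the most abundant, with Maf at 811, 953 and 1188 CPM (0.43). In Tfr 2 of 27 were higher and 2 lower (median -0.12). Prdm1, the factor of effector regulatory cells and an activator of Il10, stood at 22.9, 23.1 and 55.9 CPM (1.26), and Nfil3 at 17.1, 16.7 and 28.5 (0.74), which passed the minimum only through BKO. Runx1 (677, 677 and 445, -0.61) and Ikzf1 (447, 443 and 278, -0.68) were lower, and neither call held under TMM. Maf in Tfr, at 901, 1035 and 1479 CPM (0.61), and Junb (187, 187 and 270.0 CPM, 0.53; named after its values were seen) were called higher under TMM and not otherwise.

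Of the other T cell cytokines 0 of 7 were called in Tfh (median -0.08), where Ltb (708, 644 and 852 CPM), Cd40lg (185, 195 and 227) and Il16 were the most abundant. In Tfr 2 of 8 were lower, Csf1 (37.1, 36.1 and 20.8 CPM, -0.80) and Tnfsf11, which encodes RANKL (147, 159 and 79.8, -0.94), and both were lower under TMM as well (median of the list -0.31). Of the genes beside the members on their chromosomes 3 were measured in each class (Rad50, Irf1 and Mapkapk2) and 0 were called. Irf1 in Tfr (89.9, 87.6 and 130.3 CPM, 0.55) was higher under TMM.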

How the data were processed

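The files deposited by the authors are matrices of raw UMI counts, 1 per sample, and 2 tables that list the Tfh and Tfr cells with their subclusters. Per the submitters' processing notes Cell Ranger was used on mm10, and per the file headers it was version 7.0.1 for WT and 4 for BKO. For intron counting and doublet removal, settings are not given in the sources used here. Doublets were not called. Barcode suffixes in the tables were matched to the runs.

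The members and lists were chosen with earlier results of these data known. Counts were summed per sample, class and subcluster and scaled to CPM. Log2 ratios carry 0.5 CPM, while the rule of size (20 CPM, 1.5 times both runs) uses CPM with nothing added. The rule was first run with 0.5 CPM added and then set to CPM with nothing added, as its plan states, after its counts had been seen. Both versions called 0 members. Shares at equal depth are expected values over all thinnings to 2500 UMIs (hypergeometric). This replaced single draws after their spread was seen. Class sums in Tfh held 18734327, 29914602 and 43702235 UMIs and in Tfr 8309616, 13543176 and 15275355. Intervals are exact (Poisson, Clopper-Pearson) at 95%. A count of 0 has the same exact interval. A fold of BKO over WT for a gene is given only where its largest count was over 3 UMIs and no compared count was 0. The scripts were tested on simulated data.

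Named genes are the members, list members past the rule, the 3 most abundant of a list, the 5 most alike in pattern, and the 10 per direction between Il21-only and Il4-only cells. A gene that this rule names is not reported here. The last ranking leaves out antigen receptor segments, unnamed models, ribosomal and mitochondrial genes and needs a mean of 50 CPM. Software was Python 3.11.15, numpy 2.4.6, scipy 1.17.1, pandas 2.3.3 and R 4.3.3 with edgeR 4.0.16 (TMM) and DESeq2 1.42.0 (size factors). Gene models were GENCODE on GRCm38, and 99.6% of the 32285 features were found there.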

Additional observations from a re-analysis of the deposited data

Results flagged for a closer look

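Barcodes with more than 4000 detected genes are in the matrices but not in the deposited tables of Tfh and Tfr cells, so none of the values above uses them. The WT runs held 295 and 375 such barcodes and BKO 821, with median depths of 16208, 24930 and 19581 UMIs. In them Il21 stood at 29.4, 26.9 and 49.4 CPM, Il10 at 5.22, 7.04 and 12.9 CPM, Ifng at 11.8, 10.9 and 17.4 CPM and Il2 at 2.71, 2.93 and 4.44 CPM. These 4 were flagged because BKO lay above both WT runs in data that the tables leave out. For Il21, Il10 and Ifng the BKO interval did not overlap that of either run. Il2 rested on 14, 30 and 79 UMIs, and its BKO interval (3.52 to 5.54) overlapped those of the runs (1.48 to 4.54 and 1.98 to 4.19). Il4 was lower in BKO there, at 42.4, 40.5 and 35.1 CPM, as in the tables, but its BKO interval overlapped those of both runs. Whether these barcodes hold 1 cell or several was not tested.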

How the results depend on the processing

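No paired analysis was possible because each genotype was 1 library. Leaving out a WT run took the Il21 Tfh log2 ratio from 0.55 to 0.71, the genes called higher in Tfh from 31 to 55 and in Tfr from 74 to 92. TMM scaling gave 0.78 for Il21 in Tfh (called higher), -0.093 for Il4 and 0.18 for Ifng, and DESeq2 size factors 0.76 (called higher) and -0.11 for Il21 and Il4. With the intron trend taken off, Il21 stood at 0.49 and Ifng at -0.12. In Foxp3-free Tfh of 1 class in both runs, Il21 stood at 0.50 and Il4 at -0.33. Without Tfh subcluster 5, chosen after seeing the data, Il10 turned from -0.76 to 0.90, Ifng stood at 0.61 and Il4 at -0.38. Genes called higher in Tfh numbered 26, and 2207 without a filter, 13 at a minimum of 50 CPM, 63 with TMM and 58 with DESeq2. For lower in Tfh these were 161, 2950, 75, 83 and 86, for higher in Tfr 58, 2172, 33, 103 and 101, and for lower in Tfr 157, 2414, 90, 74 and 75. With subcluster shares of WT run 1 the makeup-weighted folds in Tfh were 1.26 for Il21 and 0.82 for Il4. Where no value above shows it, the cause was not tested. Counting error is wide for Il13 in Tfh (13 to 23 UMIs) and Ifng in Tfr (46 to 86 UMIs).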

Other observations

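Several of the cells with the most transcripts of a cytokine held a second one. In WT, 1 Tfr cell of subcluster 3 had 14 and 25 Il21 UMIs with 15 and 28 of Il2 in the 2 runs, and 1 Tfh cell of subcluster 3 had 19 and 32 of Ifng with 8 and 12 of Il2. The WT Tfh cell with 41 and 73 Il2 UMIs had none of Il21 and 2 and 3 of Il4. In BKO the Tfh cell richest in Il21 (20 UMIs, subcluster 1) had 12 of Il10 and 3 of Ifng, while the BKO Tfr cell with 48 Il10 UMIs had none of the other members. Since the WT runs read the same cells, each WT pair of values is 1 cell read 2 times.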
